A study of Homo sapiens with 3 samples.

Results

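The 9 genes described here encode enzymes of the tricarboxylic acid (TCA) cycle: CS, IDH2, IDH3G, OGDH, SUCLG1, SDHA, SDHB, FH and MDH2. They were chosen by name, and all 9 were found among the 26152 genes to which the RefSeq accessions of the deposited tables could be assigned. The libraries come from MTAC-P, a human lung cancer cell line derived from PC9 that resists inhibitors of the EGFR tyrosine kinase, grown in DMEM with 10% serum and sequenced from total RNA. The control library (n = 1) carries a hairpin against luciferase, and the 2 other libraries carry hairpins against BCAT1, which encodes the cytosolic branched-chain aminotransferase. The labels do not say whether the library labelled MTAC-shBCAT1-1 and the library labelled MTAC-shBCAT1-2 share a hairpin or a culture, so p-values reflect only how these libraries vary, and that variation may be technical.

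The TCA cycle runs in the mitochondrial matrix, where acetyl groups joined to oxaloacetate are oxidised step by step to carbon dioxide, and the electrons released pass as NADH or through succinate dehydrogenase to the respiratory chain. Its intermediates also leave the cycle as building blocks, citrate for lipid synthesis and 2-oxoglutarate for amino acid metabolism. BCAT1 touches the cycle through 2-oxoglutarate, which takes up the amino group from valine, leucine and isoleucine.

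Values are FPKM, fragments scaled to the length of a transcript and to the mapped total of its library, summed over the transcripts of a gene and given with the lower and upper confidence bounds of Cufflinks. The bounds describe the uncertainty of a value within its library and no spread between libraries. Depth read from their width was 1.03 and 1.09 times that of the control in the libraries labelled MTAC-shBCAT1-1 and MTAC-shBCAT1-2. The epithelial keratin genes KRT7, KRT8, KRT18 and KRT19 ranged from 87.7 to 410 FPKM. The epithelial markers EPCAM and CDH1 were far lower. EPCAM was at 3.86, 3.28 and 3.91 FPKM in the control library and the libraries labelled MTAC-shBCAT1-1 and MTAC-shBCAT1-2. CDH1 was at 0.923, 0.951 and 1.24 FPKM in the same order. The lung adenocarcinoma markers NKX2-1, NAPSA and SFTPB were absent or close to it, at no more than 0.224 FPKM in any library. PTPRC, COL1A2, COL3A1 and DCN, which mark leukocytes or fibroblasts, were listed at 0 in all 3 libraries. Of the 5 leukocyte markers 1 reached a mean of 1 FPKM, CD68 at 3.42, 3.51 and 3.60 FPKM, and none of 5 fibroblast or 3 endothelial markers did. The targeted gene BCAT1 was at 0.213 FPKM in the control library (bounds 0.134 to 0.297). It was at 1.05 in the library labelled MTAC-shBCAT1-1 (0.836 to 1.27) and 0.241 in the library labelled MTAC-shBCAT1-2 (0.162 to 0.325). BCAT1 RNA was thus higher than the control in the first of these, with bounds apart, and overlapped it in the other. The reduction that the labels imply was not seen in this RNA, and directions below compare libraries by label only.

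The enzyme genes stood in a narrow range of levels apart from MDH2. In the control MDH2 was at 13.2 FPKM, at the 88.3rd percentile of the genes tested, and the 8 other genes lay between 1.23 FPKM for IDH2 and 4.04 FPKM for IDH3G. The descending order in the control was MDH2, IDH3G, SDHA, SDHB, SUCLG1, CS, FH, OGDH and IDH2. The bounds of MDH2 lay apart from those of the next gene in each of the 3 libraries. The bounds of the other neighbours in this order overlapped in the control and in the library labelled MTAC-shBCAT1-1. In the library labelled MTAC-shBCAT1-2, SDHB lay above SUCLG1 and FH above OGDH with bounds apart, and the other neighbours below MDH2 overlapped. The bounds were as wide as those of 14.4 to 237 fragments in the control, an error within the library of 6.5% to 26.3% of a gene's value.

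**Figure D1:**
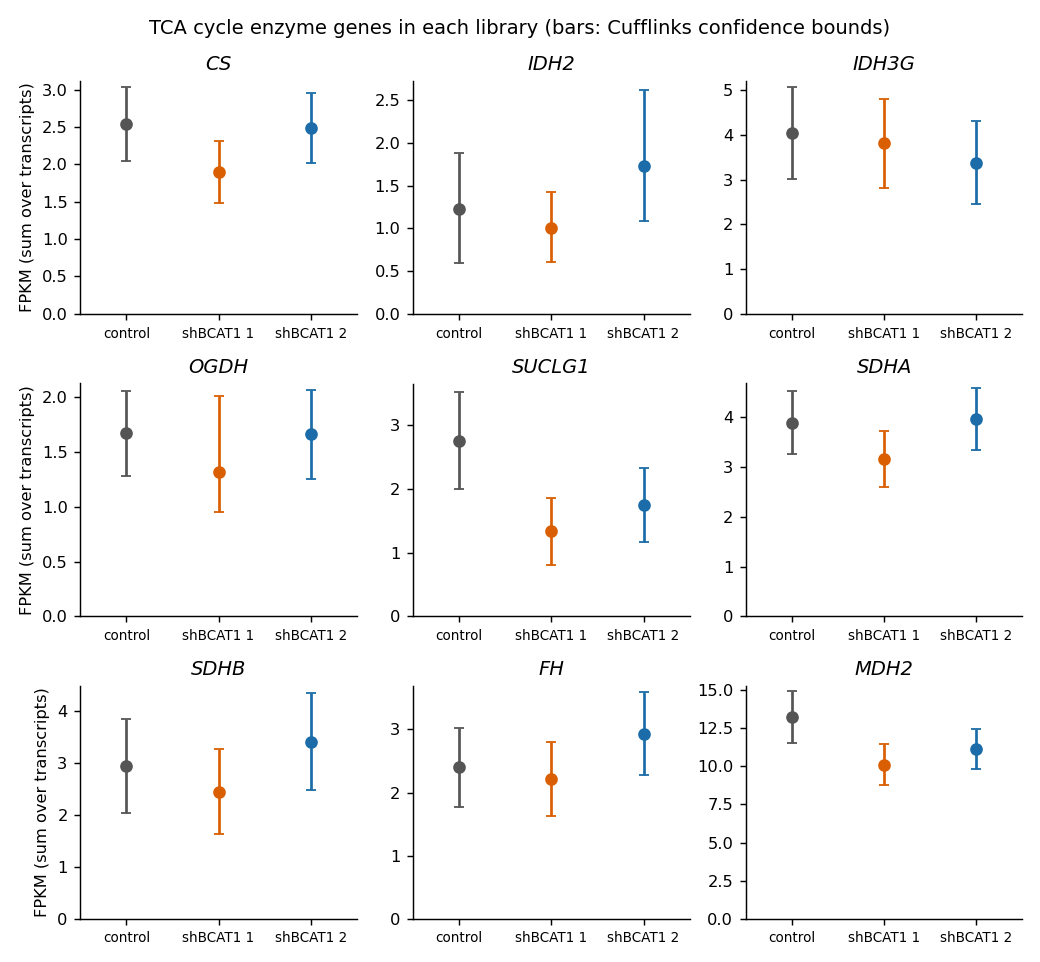
FPKM of each of the 9 TCA cycle enzyme genes (y axis, from 0, scale differs between panels) in the control and both shBCAT1-labelled libraries (x axis); points are the sums over transcripts and bars the lower and upper confidence bounds. SUCLG1 stands at 2.76, 1.34 and 1.75 FPKM, and the other genes have bounds that overlap between the control and each library, except MDH2 in the library labelled MTAC-shBCAT1-1.

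None of the 9 genes passed the test between the shBCAT1-labelled libraries and the control. In the library labelled MTAC-shBCAT1-1 all 9 were lower than the control, beside 68.7% of all 3868 genes tested. With median-of-ratios scaling, which moves the median of all genes in that library from -0.12 to -0.01 on the log2(FPKM + 1) scale, 7 of the 9 were lower there, IDH3G and FH being the exceptions. The share of all genes tested that were lower there was 50.7% with this scaling. Quantile normalization likewise left 7 of the 9 lower, beside 46.4% of all genes tested. In the library labelled MTAC-shBCAT1-2, 5 of the 9 were lower, beside 49% of all genes tested. The genes lower in both were CS, IDH3G, OGDH, SUCLG1 and MDH2, 5 of 9 beside 43.7% of all genes tested, and the 2 comparisons share the control library. IDH2, SDHA, SDHB and FH were below the control in 1 library and above it in the other. With median-of-ratios scaling 4 of the 9 were lower in both, beside 36.8% of all genes tested. After quantile normalization the count was again 4 of 9, beside 32.1%. Without rescaling, the median log2(FPKM + 1) difference of the 9 genes was -0.11, beside -0.06 for all genes tested. It was -0.20 in the library labelled MTAC-shBCAT1-1, where the median of all genes was -0.12, and -0.00 in the library labelled MTAC-shBCAT1-2, where it was 0.01.

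By limma, fitted with an intensity trend and adjusted by Benjamini-Hochberg, 0 of the 9 passed an adjusted p of 0.05, and 0 had an unadjusted p under 0.05. The adjusted p ranged from 0.797 for SUCLG1 to 0.989 for SDHB. Of all genes tested 0.362% were called lower and 0% higher, and 5.02% were lower at an unadjusted p under 0.05. The control is a single library and is assumed to vary like the others, with 1 residual degree of freedom. In libraries simulated with 200 changed genes among 3868, this test called 7.1% of the genes set to a 2-fold change of FPKM + 1. It called 95% of those set to an 8-fold change of FPKM + 1. Changes of the size seen here were therefore mostly not detectable. An 8-fold fall on this scale is impossible for the 8 genes other than MDH2, which are too low in the control. In bulk RNA, fewer cells that express a gene and less of its RNA per cell cannot be told apart.

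**Figure D2:**
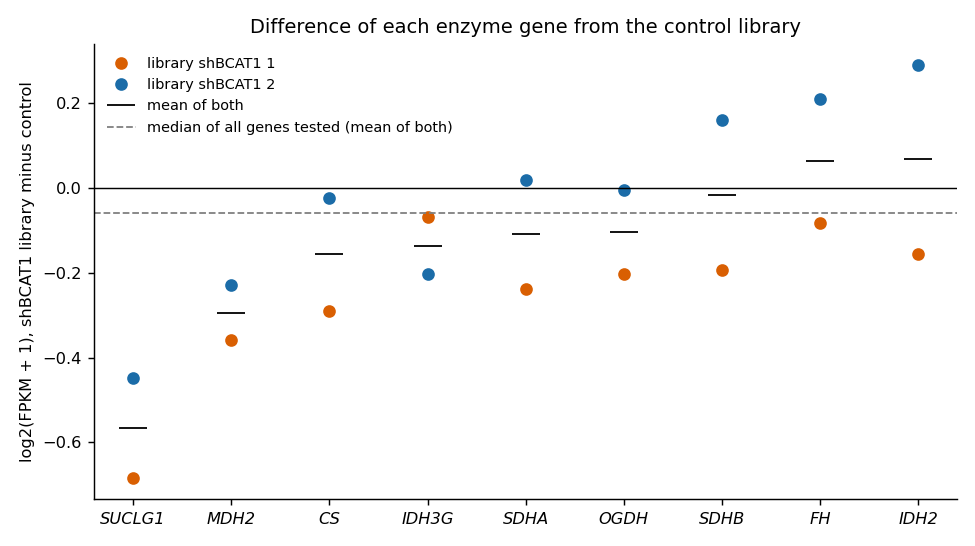
Difference from the control on the log2(FPKM + 1) scale (y axis) for each of the 9 genes (x axis, ordered by the mean); coloured points are the single libraries, black bars their mean, and the dashed line the median of all genes tested, -0.06. SUCLG1 has the lowest mean, -0.57, and 4 genes have points on both sides of 0.

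CS encodes citrate synthase, which joins acetyl-CoA to oxaloacetate and opens the cycle (chromosome 12, 56271699 to 56300391, hg38). It was at 2.54 FPKM in the control library (bounds 2.05 to 3.04), 1.90 in the library labelled MTAC-shBCAT1-1 (1.48 to 2.32) and 2.49 in the library labelled MTAC-shBCAT1-2 (2.02 to 2.95). The library labelled MTAC-shBCAT1-1 was the low one, at 0.746 times the control, and its bounds overlapped those of the control. The single transcript of CS had bounds as wide as those of 106 fragments in the control. The fitted log2(FPKM + 1) difference was -0.16 ± 0.22 (SE; limma adjusted p 0.88).

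The next oxidation is carried out by isocitrate dehydrogenases. IDH2 encodes the mitochondrial NADP-dependent enzyme (chromosome 15, 90083980 to 90102554), which works in both directions between isocitrate and 2-oxoglutarate. Its sum was 1.23 FPKM in the control library (0.59 to 1.88), 1.00 in the library labelled MTAC-shBCAT1-1 (0.602 to 1.43) and 1.73 in the library labelled MTAC-shBCAT1-2 (1.09 to 2.62). The shBCAT1-labelled libraries fell on either side of the control, all bounds overlapped, and the fitted difference was 0.07 ± 0.26 (SE; limma adjusted p 0.955). The sum hides a difference between its transcripts. NM_001290114 was at 0.716 FPKM in the control library (0.264 to 1.17) and near 0 in both other libraries, with upper bounds of 0.0957 and 0.0911. NM_002168, which spans the same locus, was at 0.517 FPKM in the control library (0.0602 to 0.973), 1.00 in the library labelled MTAC-shBCAT1-1 (0.602 to 1.41) and 1.31 in the library labelled MTAC-shBCAT1-2 (0.821 to 1.81). The bounds of NM_001290114 lay apart from the control in both libraries, whereas NM_002168 overlapped it. A further transcript, NM_001289910, was near 0 in the control library and the library labelled MTAC-shBCAT1-1. In the library labelled MTAC-shBCAT1-2 it was at 0.419 FPKM (0 to 1.15), 24.2% of the sum there, with bounds as wide as those of 1.29 fragments. NM_001290114 is a low transcript, and a minimum mean of 0.2 FPKM was set after its values had been seen. Among transcripts reaching it in genes with several entries, 4.74% of 7158 were lower in both libraries with bounds apart. Of 11 such transcripts of the enzyme genes 2 were, NM_001290114 and NM_001165036 of OGDH. NM_001290114 reached the minimum only through the control library, in which it was higher, so these shares do not test it. In the control NM_001290114 and NM_002168 had bounds as wide as those of 10.0 and 5.12 fragments.

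IDH3G encodes the gamma subunit of the NAD-dependent isocitrate dehydrogenase, the form regarded as the main oxidative step of the cycle (chromosome X, 153785766 to 153794523). It was at 4.04 FPKM in the control library (3.01 to 5.07), 3.81 in the library labelled MTAC-shBCAT1-1 (2.82 to 4.80) and 3.38 in the library labelled MTAC-shBCAT1-2 (2.46 to 4.30). These values overlapped throughout, and IDH3G was the only one of the 9 genes that was lower in the library labelled MTAC-shBCAT1-2 than in the library labelled MTAC-shBCAT1-1, while 68% of all genes tested were higher there. The fitted difference was -0.14 ± 0.20 (SE; limma adjusted p 0.89). Its transcripts NM_004135 and NM_174869 stood at 2.35 and 1.70 FPKM in the control library, 1.82 and 1.99 in the library labelled MTAC-shBCAT1-1, and 2.10 and 1.28 in the library labelled MTAC-shBCAT1-2, with bounds that overlapped the control for both.

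The partner subunits of this enzyme differed in level, a comparison chosen after the values had been seen. IDH3A, the catalytic alpha subunit, was at 0.621, 0.314 and 0.397 FPKM in the control library and the libraries labelled MTAC-shBCAT1-1 and MTAC-shBCAT1-2. IDH3B, the beta subunit, was at 9.03, 8.04 and 9.69 FPKM in the same order. The bounds of IDH3A, IDH3G and IDH3B lay apart from each other within every library, with IDH3A lowest and IDH3B highest per transcript length.

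OGDH encodes the E1 subunit of the 2-oxoglutarate dehydrogenase complex, which turns 2-oxoglutarate into succinyl-CoA (chromosome 7, 44606522 to 44709070). The gene's sum was 1.67 FPKM in the control library (1.28 to 2.06), 1.32 in the library labelled MTAC-shBCAT1-1 (0.953 to 2.01) and 1.66 in the library labelled MTAC-shBCAT1-2 (1.25 to 2.07). The control and the library labelled MTAC-shBCAT1-2 were level, at a ratio of 0.995, and the fitted difference was -0.10 ± 0.19 (SE; limma adjusted p 0.916). Beneath this sum the shares of the transcripts NM_001165036 and NM_002541 differed between libraries. NM_002541 was the larger of them only in the library labelled MTAC-shBCAT1-2.

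In GENCODE release 29 on GRCh38, the OGDH transcripts NM_001165036 and NM_002541 share 20 internal exons and differ inside in exon 4, where each holds its own coding exon. The exon of NM_001165036 has 91 bases (chr7:44647444-44647534, plus strand) and that of NM_002541 has 103 bases (chr7:44647657-44647759, plus strand), so they differ by 12 bases and lie 122 bases apart in the gene. A shorter transcript, NM_001003941, holds the 103-base exon as well. The outer exons of the GENCODE models differ too, with 48 bases of the first exon only in NM_001165036 and 738 bases of the last exon only in NM_002541, for transcript lengths of 3479 and 4181 bases. In the deposited tables both transcripts span the same start and end. Both exons are shown here because they are the coding difference between the transcripts whose values differ between the libraries. The exon is in capitals and 20 bases of the exons on either side are in lower case.
OGDH 91-base exon: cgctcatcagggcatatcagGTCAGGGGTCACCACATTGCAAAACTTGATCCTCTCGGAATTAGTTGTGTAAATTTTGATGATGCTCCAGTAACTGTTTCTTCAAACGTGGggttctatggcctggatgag
OGDH 103-base exon: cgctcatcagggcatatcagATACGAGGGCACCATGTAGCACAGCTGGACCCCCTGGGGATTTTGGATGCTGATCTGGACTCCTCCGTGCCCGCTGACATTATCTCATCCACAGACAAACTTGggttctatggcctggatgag

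NM_001165036, with the 91-base exon, was at 1.44 FPKM in the control library (1.12 to 1.76), 0.678 in the library labelled MTAC-shBCAT1-1 (0.432 to 0.925) and 0.291 in the library labelled MTAC-shBCAT1-2 (0.114 to 0.467). NM_002541, with the 103-base exon, was at 0.00189 FPKM in the control library (0 to 0.0343), 0.484 in the library labelled MTAC-shBCAT1-1 (0.264 to 0.705) and 1.15 in the library labelled MTAC-shBCAT1-2 (0.857 to 1.43). For both transcripts the bounds of each shBCAT1-labelled library lay apart from those of the control, lower for the first and higher for the second. NM_001003941 was at 0.230, 0.157 and 0.224 FPKM with overlapping bounds. NM_001165036 thus held 86.1% of the OGDH value in the control, 51.4% in the library labelled MTAC-shBCAT1-1 and 17.5% in the library labelled MTAC-shBCAT1-2.

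A transcript lower and another higher in both libraries with bounds apart was found in 1.8% of 2617 genes, 47 in number, among transcripts with a mean of at least 0.5 FPKM in genes with several entries. OGDH was the only one of the 9 enzyme genes among them, of which 5 had such a transcript. A gene can be counted only if 2 of its transcripts reach that mean. The 2617 include genes with only 1, such as IDH2 and SDHA, so 1.8% understates the share among genes that could be counted. Of all 3963 such transcripts, 4.97% were lower and 4.64% higher in both libraries with bounds apart. NM_002541 reached the minimum of 0.5 FPKM only through the shBCAT1-labelled libraries, in which it was higher, so these shares do not test it. The exons make up 2.62% and 2.46% of the lengths of their GENCODE transcripts, and the bounds of NM_001165036 were as wide as those of 81.1, 30.3 and 10.8 fragments in the control library and the libraries labelled MTAC-shBCAT1-1 and MTAC-shBCAT1-2. The fragments lying on the exons themselves cannot be read from the tables. The transcripts were singled out after their values had been seen, the single control library gives no replicate check, and no p is attached to them.

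**Figure D3:**
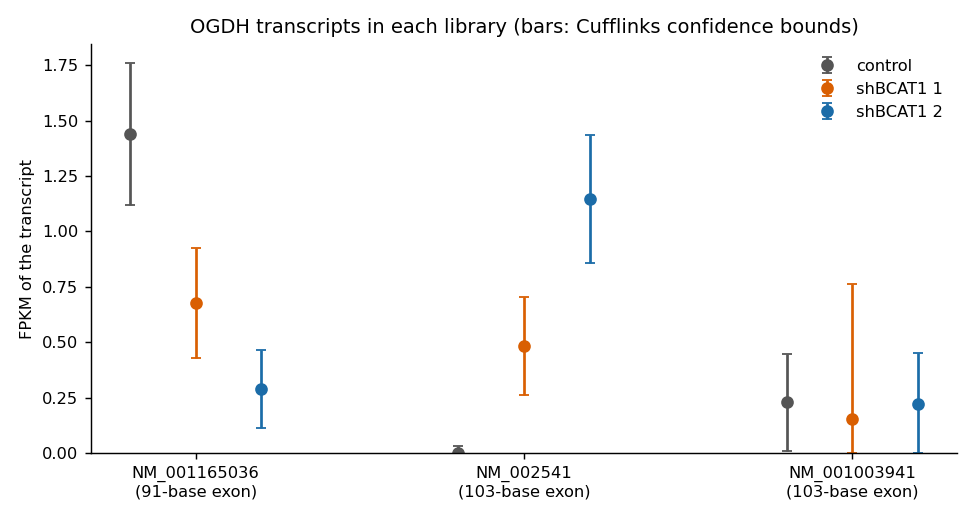
FPKM (y axis) of the 3 OGDH transcripts (x axis) in the control (grey) and the libraries labelled MTAC-shBCAT1-1 (orange) and MTAC-shBCAT1-2 (blue), with confidence bounds as bars. The transcript with the 91-base exon stands at 1.44, 0.678 and 0.291 FPKM and NM_002541 with the 103-base exon at 0.00189, 0.484 and 1.15.

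The DLST and DLD subunits of the complex were below the control in the library labelled MTAC-shBCAT1-1 and above it in the library labelled MTAC-shBCAT1-2. DLST, the E2 subunit that carries the lipoyl arm, was at 4.08, 3.75 and 5.06 FPKM in the control library and the libraries labelled MTAC-shBCAT1-1 and MTAC-shBCAT1-2, and its bounds lay above those of OGDH in each library. DLD, the E3 subunit shared with pyruvate dehydrogenase, was at 0.571, 0.515 and 0.914 FPKM. OGDHL, a paralog of OGDH, was listed at 0 in the control and at 0.0608 and 0.0575 FPKM in the other libraries. These 3 genes were named after their values had been seen.

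SUCLG1 encodes the alpha subunit of succinyl-CoA ligase, which makes succinate together with GTP or ATP (chromosome 2, 84423523 to 84459462). It was at 2.76 FPKM in the control library (1.99 to 3.52), 1.34 in the library labelled MTAC-shBCAT1-1 (0.813 to 1.86) and 1.75 in the library labelled MTAC-shBCAT1-2 (1.17 to 2.34). Both shBCAT1-labelled libraries were below the control, at 0.485 and 0.635 times its value, and the bounds lay apart in the library labelled MTAC-shBCAT1-1 and overlapped in the other. The bounds of its single transcript were as wide as those of 52 fragments in the control, 26 in the library labelled MTAC-shBCAT1-1 and 36 in the library labelled MTAC-shBCAT1-2. The FPKM of the shBCAT1-labelled libraries averaged 1.54 ± 0.293 (SD, n = 2). The fitted log2(FPKM + 1) difference was -0.57 ± 0.21 (SE), with an unadjusted p of 0.0511 and an adjusted p of 0.797 by limma. This was the lowest difference of the 9 genes. Over the replicated alternatives and the main analysis its difference ranged from -0.81 to -0.25 and its adjusted p from 0.621 to 0.827.

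The beta subunits that pair with SUCLG1 were low in level. SUCLG2, of the GTP-forming enzyme, was at 0.464, 0.48 and 0.972 FPKM in the control library and the libraries labelled MTAC-shBCAT1-1 and MTAC-shBCAT1-2, and SUCLA2, of the ATP-forming enzyme, at 0.271, 0.197 and 0.28 FPKM. Neither had bounds apart from the control. Both were below the minimum mean of 1 FPKM for the test and were named after their values had been seen.

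Bounds apart from the control were found for SUCLG1 and MDH2 in the library labelled MTAC-shBCAT1-1, both lower, that is for 2 of 9 genes beside 7.7% of all genes tested. None was higher with bounds apart there, beside 1.65%. In the library labelled MTAC-shBCAT1-2 this held for 0 of 9 genes, beside 7.76% lower and 7.6% higher among all genes tested. Lower with bounds apart in both libraries were 0 of 9 genes, beside 4.24% of all genes tested. The rule of bounds apart was set with these values in view. The bounds were not rescaled, although the median of all genes in the library labelled MTAC-shBCAT1-1 was -0.12 on the log2(FPKM + 1) scale. Median-of-ratios factors, by which values are divided, were 1.041 for the control and 0.931 for that library. Whether the bounds stay apart after such scaling was not tested.

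Succinate dehydrogenase oxidises succinate to fumarate and is at the same time complex II of the respiratory chain. SDHA encodes its flavoprotein subunit (chromosome 5, 218223 to 257082), which was at 3.89 FPKM in the control library (3.26 to 4.53), 3.15 in the library labelled MTAC-shBCAT1-1 (2.59 to 3.71) and 3.96 in the library labelled MTAC-shBCAT1-2 (3.35 to 4.57). The library labelled MTAC-shBCAT1-1 was the low one and the others were level, with all bounds overlapping. The fitted difference was -0.11 ± 0.22 (SE; limma adjusted p 0.927).

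SDHA is uncertain because pseudogenes close to it in sequence can share its reads, and these did not follow it. SDHAP1 was at 1.40 FPKM in the control library (0.996 to 1.80), 1.92 in the library labelled MTAC-shBCAT1-1 (1.45 to 2.38) and 2.52 in the library labelled MTAC-shBCAT1-2 (2.00 to 3.04). Its bounds lay above those of the control in the library labelled MTAC-shBCAT1-2. SDHAP2 was at 2.04, 2.08 and 3.03 FPKM and SDHAP3 at 0.35, 0.442 and 0.868 FPKM, both highest in the library labelled MTAC-shBCAT1-2, while SDHAP4 was at 0.904, 0.792 and 0.676 FPKM. The bounds of these 3 overlapped those of the control. SDHA made up 45.3% of the sum over SDHA and the 4 pseudogenes in the control, 37.6% in the library labelled MTAC-shBCAT1-1 and 35.8% in the library labelled MTAC-shBCAT1-2, with sums of 8.58, 8.38 and 11.0 FPKM. By limma the adjusted p was 0.797 for SDHAP1 and 0.866 for SDHAP2.

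**Figure D4:**
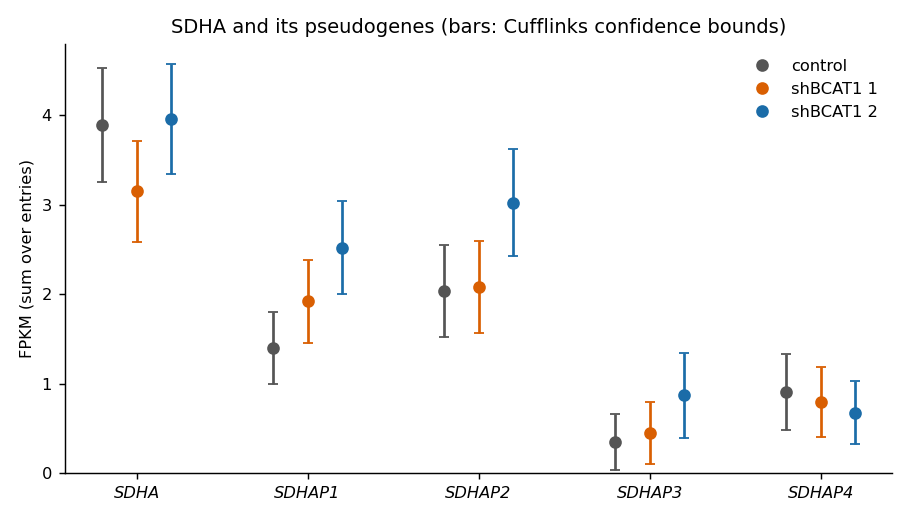
FPKM (y axis) of SDHA and its 4 pseudogenes (x axis) in the control (grey) and the libraries labelled MTAC-shBCAT1-1 (orange) and MTAC-shBCAT1-2 (blue), with confidence bounds as bars. SDHAP1 stands at 1.40, 1.92 and 2.52 FPKM while SDHA stands at 3.89, 3.15 and 3.96.

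SDHB encodes the iron-sulfur subunit (chromosome 1, 17018726 to 17054170). It was at 2.95 FPKM in the control library (2.04 to 3.86), 2.45 in the library labelled MTAC-shBCAT1-1 (1.64 to 3.27) and 3.42 in the library labelled MTAC-shBCAT1-2 (2.48 to 4.36). The shBCAT1-labelled libraries lay on either side of the control, and the fitted difference of -0.02 ± 0.24 (SE; limma adjusted p 0.989) became 0.038 with scaling by the median of ratios and 0.051 after quantile normalization. SDHC, a membrane anchor of the complex, was at 1.63, 1.11 and 1.37 FPKM, a difference of -0.23 ± 0.18 (SE; limma adjusted p 0.833), lower in both libraries with overlapping bounds. SDHD, the other anchor, was below the minimum at 0.934, 0.735 and 0.205 FPKM, with bounds that overlapped the control, and is named after its values had been seen. Of the assembly factors, SDHAF2, which helps to attach the flavin to SDHA, was at 1.50, 1.02 and 1.26 FPKM and SDHAF1, which acts on SDHB, at 0.931, 0.973 and 1.18 FPKM. Their adjusted p by limma was 0.833 and 0.902.

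FH encodes fumarase, which hydrates fumarate to malate (chromosome 1, 241497557 to 241519785). It was at 2.40 FPKM in the control library (1.78 to 3.02), 2.21 in the library labelled MTAC-shBCAT1-1 (1.62 to 2.79) and 2.93 in the library labelled MTAC-shBCAT1-2 (2.28 to 3.59). The values overlapped, with the library labelled MTAC-shBCAT1-2 highest, and the fitted difference was 0.06 ± 0.22 (SE; limma adjusted p 0.949). FH and IDH2 were the 2 genes with a mean above the control.

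MDH2 encodes mitochondrial malate dehydrogenase, which closes the cycle by making oxaloacetate and takes part in the malate-aspartate shuttle (chromosome 7, 76048019 to 76067508). It was at 13.2 FPKM in the control library (11.5 to 14.9), 10.1 in the library labelled MTAC-shBCAT1-1 (8.74 to 11.5) and 11.1 in the library labelled MTAC-shBCAT1-2 (9.82 to 12.5). Both shBCAT1-labelled libraries were lower, at 0.763 and 0.842 times the control, and the fitted difference was -0.29 ± 0.20 (SE; limma adjusted p 0.801). The MDH2 difference was -0.22 with median-of-ratios scaling and -0.060 after quantile normalization. With the filter raised to 5 FPKM, 1036 genes including MDH2 were left, and their median difference was -0.22 without rescaling. Of these, 84.9% were lower in the library labelled MTAC-shBCAT1-1, 67.1% in the library labelled MTAC-shBCAT1-2 and 64.6% in both. Whether MDH2 departs from them was not tested. The bounds of the library labelled MTAC-shBCAT1-1 lay apart from the control by a narrow margin, 11.51 for the lower bound of the control against 11.46. This separation is not seen in the main transcript NM_005918 alone, which was at 10.7 (9.46 to 11.8), 8.66 (7.58 to 9.75) and 9.90 FPKM (8.77 to 11.0). The non-coding transcript NR_104165, at the start of the locus, was at 2.33 FPKM in the control library (1.12 to 3.54), 0.779 in the library labelled MTAC-shBCAT1-1 (0.064 to 1.49) and 0.57 in the library labelled MTAC-shBCAT1-2 (0 to 1.14). It held 17.6% of the control's sum, 7.71% in the library labelled MTAC-shBCAT1-1 and 5.11% in the library labelled MTAC-shBCAT1-2, and its bounds overlapped the control in both.

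Of 49 further genes of the cycle, of pyruvate entry and of its exchange with the cytosol, 13 reached the mean of 1 FPKM and 0 were called by limma, 0 also at an unadjusted p under 0.05. Of these 13, 6 were lower in both libraries, 1 was higher in both and 6 lay on either side, with a median log2(FPKM + 1) difference of -0.05. Of all genes tested 43.7% were lower in both. In the library labelled MTAC-shBCAT1-1, 12 of 13 were below the control, beside 68.7% of all genes tested, and in the library labelled MTAC-shBCAT1-2 6 of 13, beside 49%. With median-of-ratios factors 6 of the 13 were lower in the library labelled MTAC-shBCAT1-1 and 3 in both, beside 50.7% and 36.8% of all genes tested. After quantile normalization the counts were again 6 and 3, beside 46.4% and 32.1%. Their bounds overlapped those of the control in each library for all 13.

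SLC25A11, the carrier that exchanges 2-oxoglutarate for malate across the inner membrane, was at 2.04 FPKM in the control library (1.44 to 2.68), 1.52 in the library labelled MTAC-shBCAT1-1 (0.906 to 2.35) and 1.29 in the library labelled MTAC-shBCAT1-2 (0.84 to 1.75). It was lower in both, with a difference of -0.34 ± 0.19 (SE; limma adjusted p 0.801). The genes of the exchange and entry steps that were chosen for lying on the same side of the control in both libraries were, beside SLC25A11, at 0.943 to 0.972 times the control in each. The dicarboxylate carrier SLC25A10 was at 5.58, 5.32 and 5.34 FPKM, the mitochondrial aspartate aminotransferase GOT2 at 2.86, 2.70 and 2.78 FPKM, and PDHA1, the E1 alpha subunit of pyruvate dehydrogenase, at 1.47, 1.39 and 1.40 FPKM in the control library and the libraries labelled MTAC-shBCAT1-1 and MTAC-shBCAT1-2. The other tested genes of the exchange list lay on either side of the control. SLC25A1, the citrate carrier, was at 16.2, 12.1 and 18.5 FPKM and ACLY, which splits citrate into acetyl-CoA and oxaloacetate in the cytosol, at 1.06, 0.933 and 1.41 FPKM in the same order. Their adjusted p by limma was 0.937 and 0.945, and both were named after their values had been seen. The bounds were wide for GOT2 in the library labelled MTAC-shBCAT1-2 (0.383 to 6.41) and for SLC25A10 in the library labelled MTAC-shBCAT1-1 (0.872 to 11.5).

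**Figure D5:**
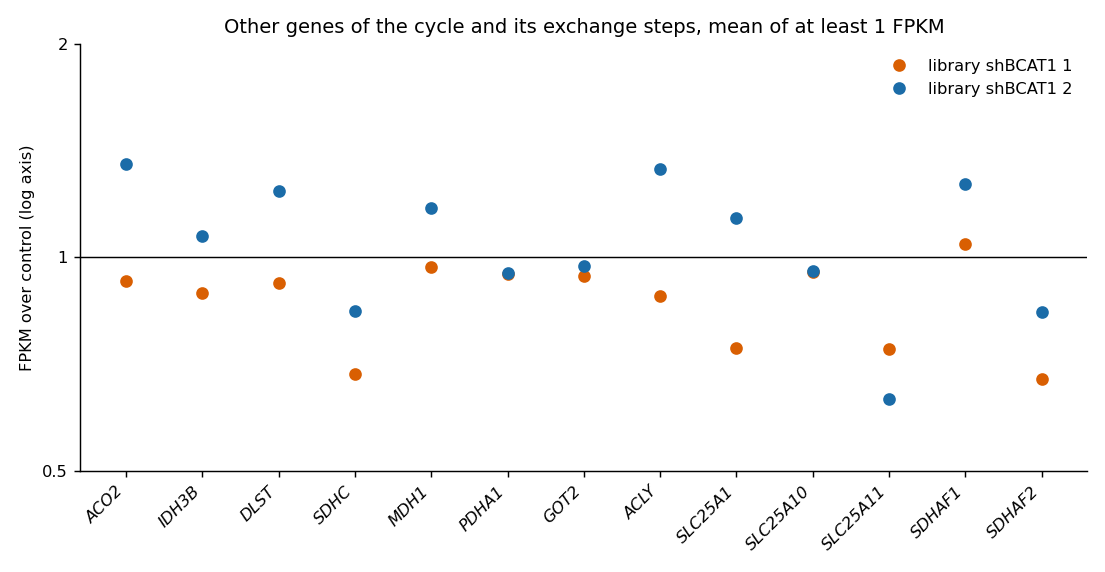
FPKM over the control value (y axis, log axis) of the 13 further genes that reached the minimum of 1 FPKM (x axis) in the libraries labelled MTAC-shBCAT1-1 (orange) and MTAC-shBCAT1-2 (blue); the line marks the control. The orange points lie below the line for 12 of 13 genes and the blue points for 6.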

How the data were processed

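RNA of 3 libraries was analysed, grouped by the knockdown label. FPKM with confidence bounds and a status were computed by the authors per library and deposited for each RefSeq transcript and locus. The submitters' processing notes name Trim Galore, TopHat, Cufflinks and hg38. Versions, settings, annotation and strand were not given in the sources used here.

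Accessions (50337) were named through RefSeq (GRCh38.p14, 49281) or GENCODE release 29 (646). FPKM was summed over 56882 entries per gene symbol, and bounds were combined as a root sum of squares. Taking the upper bound as 2 SDs above a value, (value / SD) squared gave equivalent fragments, which hold no spread between libraries. They express the width of the bounds and are not counts of fragments. For GOT2 they were 57.9 in the control library and 2.34 in the library labelled MTAC-shBCAT1-2, at 2.86 and 2.78 FPKM. Genes with a status other than OK (325) were left out. limma 3.58.1 (R 4.3.3) was fitted with a trend on log2(FPKM + 1) for genes averaging 1 FPKM or more, two-sided, and tested on simulated data. log2 differences understate the change of low genes. Python 3.11.15 with pandas 2.3.3 built the tables. Alternatives changed the pseudocount, filter, scaling, entries, loci, trend and libraries.

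The members and gene lists were chosen with earlier results of these data known. Named were the 9 enzymes, BCAT1, the SDHA pseudogenes and, per list, up to 4 tested genes that differed in the same direction in both libraries, ranked by the smaller of their differences. Others are marked in the text.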

Additional observations from a re-analysis of the deposited data

How the results depend on the processing

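Under the 10 replicated alternatives, 0 of the 9 enzyme genes passed, and the smallest adjusted p was 0.527 (MDH2 at a minimum mean of 5 FPKM, where the 8 others were not tested). With the highest entry of each gene, IDH2 and OGDH fell under the minimum, so no median or count over all 9 was given there. Of 98 single values, 92 kept their direction. Those under a changed filter, trend, or choice of loci or chromosomes equalled the main values, so their direction was fixed in advance. SDHB became 0.038 with scaling by the median of ratios and 0.051 after quantile normalization. Leaving out 1 shBCAT1-labelled library at a time, with no test, gave -0.24 to 0.020 for SDHA, -0.19 to 0.16 for SDHB, -0.16 to 0.29 for IDH2 and -0.082 to 0.21 for FH, the higher values without shBCAT1 replicate 1, and -0.20 to -0.00 for the median of the 9. The count of 14 genes called among all became 0 with no filter on the mean, 8 at a minimum of 5 FPKM, 8 with the highest entry of each gene and 1 without loci under 300 bases. Further pathway genes lower in both libraries were 6 of 13, beside 43.7% of all genes tested. The count became 21 of 48 with no filter, beside 35.2%, and 1 of 3 at a minimum of 5 FPKM, beside 64.6%. It was 3 of 13 under either rescaling, beside 36.8% with median-of-ratios factors and 32.1% after quantile normalization. The cause was not tested, beyond the changed number of genes under the filters. No paired analysis was possible because the single control library carries no replicate number. Wide bounds limit what can be seen in the low values. The sum of IDH2 in the control had bounds as wide as those of 14.4 fragments, and 2 of its transcripts there those of 10.0 and 5.12.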
